A study of Mus musculus with 5 samples.

Results

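The 7 genes described here form the route by which the ileum takes bile acids back from the lumen and signals their arrival: Slc10a2, Fabp6, Slc51a, Slc51b, Nr1h4, Fgf15 and Nr0b2. They were chosen by name among the 27998 genes of the count matrices, and each matched 1 row. In the ileal enterocyte, Slc10a2 (the apical sodium-dependent bile acid transporter) brings bile acids in across the brush border, Fabp6 (the ileal bile acid binding protein) carries them through the cytosol, and Slc51a with Slc51b (the alpha and beta subunits of the organic solute transporter) exports them across the basolateral membrane. Inside the cell bile acids activate Nr1h4, the farnesoid X receptor. That receptor drives transcription of Fgf15, a hormone that reaches the liver and restrains bile acid synthesis, and of Nr0b2 (the small heterodimer partner, a transcriptional repressor).

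The data are droplet-based single-cell RNA-seq of ileal (distal small intestinal) epithelium. All mice were C57BL/6, between 8 and 12 weeks old, and had undergone either sham surgery (3 libraries) or small bowel resection (2 libraries). Comparing the operations addresses how the ileum adapts to loss of bowel. The removed segment, the interval after surgery and the number of animals per library were not given in the sources used here, so p-values measure the spread between these libraries, which may be partly technical. The matrices held 19404 cells, 1402 to 7233 per library, with 11749028 to 41281731 unique molecular identifiers (UMIs, 1 per captured RNA molecule) per library and medians of 4541 to 6239.5 UMIs per cell. After filtering, 18235 cells remained, and Epcam, the pan-epithelial adhesion molecule, was detected in 98.8% to 99.8% of those of each library. Pairs of libraries shared 6 to 47 cell barcodes.

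Clusters were named from marker genes with the 7 genes and other bile acid genes left out of the clustering. The enterocyte-like class held 11562 cells, 696 to 4493 per library. The others were immature enterocyte-like (237 to 903 per library), cycling-like (66 to 335), Paneth-like (120 to 275), goblet-like (32 to 194), T cell-like (30 to 236), stem-like (0 to 257) and tuft-like (0 to 8). In sham 1 the border between enterocyte-like and immature enterocyte-like cells moved with the settings. That library held 696 and 237 of them here, 45 and 887 at a clustering resolution of 0.5, and 527 and 411 without doublet removal. The libraries stood apart in a way the surgery labels do not explain. Sham 1 shared 33.9% of its cluster make-up with resection 1 but 7.35% to 8.66% with the other libraries, and sham 2, sham 3 and resection 2 shared 47.5% to 54.5% with each other. These groupings (sham 1 with resection 1, and sham 2 and sham 3 with resection 2) are called library sets below. Within the immature enterocyte-like, Paneth-like and cycling-like classes the split was nearly complete. Pairs of the same set shared 95.8% to 99.99% of their make-up there, and pairs across sets 0.403% to 8.67%. The main comparison of resection with sham had no term for the sets. They are a split seen in the data, not a labelled batch, and within-set differences are printed beside the main ones in enterocyte-like cells, except for Nr0b2, whose sham counts are too low. Within the enterocyte-like class each library had its own leading cluster: cluster 10 in sham 1, 3 in sham 2, 4 in sham 3, 7 in resection 1 and 0 in resection 2.

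Fabp6 (ENSMUSG00000020405, GRCm38 chr11:43596049-43601540, minus strand) took 1.59% of all UMIs in kept cells. Its level was first taken as CPM, the gene's UMIs when the summed UMIs of a class and library are scaled to 1000000. In enterocyte-like cells this was 33958 CPM in sham 1, 27556 in sham 2, 44148 in sham 3, 7676 in resection 1 and 21844 in resection 2. All sham libraries were above the resection libraries, and resection 1 was the lowest. Immature enterocyte-like cells carried 32.0% of the enterocyte-like level on average over the 5 libraries. Paneth-like, cycling-like and stem-like cells carried 9.94%, 9.92% and 7.89%, and cycling-like cells were above Paneth-like cells in only 3 of 5 libraries. Goblet-like cells carried 50.8% and T cell-like cells 58.6%. The summed enterocyte markers were also found in those droplets, at 60.3% of the enterocyte-like level in goblet-like and 70.7% in T cell-like cells. Fabp6 in these classes was thus no higher, relative to enterocyte-like cells, than the enterocyte markers together. The part of free RNA or mixed droplets was not tested.

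The Fabp6 promoter is shown because it is a textbook target of the farnesoid X receptor, together with that of Slc51b, the other promoter of this set in which the same letters were found. RefSeq promoters (GRCm38.p6, 250 bases before to 50 after the start) were held for 6 of the 7 genes. The motif searched was GGTNANTNACC, a form of the IR-1 element, an inverted repeat of hormone receptor half-sites around 1 base. It reads the same on both strands. Its 11 letters were found in 86 of 32851 promoters, 0.262%. Matches are in capitals, and both sequences run 5′ to 3′ on the gene's strand, which is the minus strand for both.
Fabp6: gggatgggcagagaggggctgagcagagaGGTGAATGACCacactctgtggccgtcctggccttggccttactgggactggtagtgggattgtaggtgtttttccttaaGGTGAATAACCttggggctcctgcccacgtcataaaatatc
Slc51b: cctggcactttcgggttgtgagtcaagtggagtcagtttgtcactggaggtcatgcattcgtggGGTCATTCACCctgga
The Fabp6 stretch is chr11:43601663-43601812, from 250 to 101 bases before the RefSeq start, and holds 2 matches, whose first bases lie 221 and 141 bases before that start. The Slc51b stretch is chr9:65422944-65423023, from 250 to 171 bases before the RefSeq start, with a single match beginning 186 bases before it. GENCODE places the start of Slc51b within this stretch, at 65422955. The letters were not in the windows of Slc10a2, Slc51a, Nr1h4 and Nr0b2, which says only that these windows lack this exact string. CAAGGNCA, the site type of the nuclear receptor Nr5a2, was searched on both strands. It occurred in Fabp6, Slc51a and Nr0b2, against 6.71% of all promoters.

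Slc10a2 (ENSMUSG00000023073, chr8:5083219-5105351, minus strand) was more restricted to mature cells than Fabp6. Its enterocyte-like level was 522 CPM in sham 1, 431 in sham 2, 470 in sham 3, 513 in resection 1 and 274 in resection 2. Of these, the first 4 libraries lay close together and resection 2 stood below them. Immature enterocyte-like cells carried 14.5% of that level on average, against 32.0% for Fabp6, 40.6% for Slc51a and 37.4% for Slc51b. Stem-like, Paneth-like and cycling-like cells carried 5.05% to 6.94%. All 4 of these transport and binding genes were higher in enterocyte-like cells than in any other class with 20 or more cells in 5 of 5 libraries. Paneth-like and cycling-like cells could not be ordered for Slc10a2, since cycling-like cells were higher in only 2 of 5 libraries.

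Slc51a (ENSMUSG00000035699, chr16:32474504-32487879, minus strand) had enterocyte-like levels of 2084, 1599, 1480, 1202 and 1060 CPM in sham 1, sham 2, sham 3, resection 1 and resection 2. Slc51b (ENSMUSG00000053862, chr9:65412714-65422955, minus strand) had levels of 584, 1172, 1605, 499 and 1207 CPM in the same order. Although the protein products work as a pair, their counts did not keep a fixed ratio. For the libraries sham 1 and resection 1 the log2 ratio of Slc51a to Slc51b was 1.84 and 1.27, while sham 2 had 0.45, sham 3 had −0.12 and resection 2 had −0.19. Slc51b thus lay low in both libraries of the set of sham 1 and resection 1. Slc51a overlaps Pcyt1a on the opposite strand, Slc51b overlaps Rasl12, and Fgf15 overlaps Gm26793 and Gm39119. Whether counting used strand was not given in the sources used here.

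Nr1h4 (ENSMUSG00000047638, chr10:89454234-89533585, minus strand) had another cellular distribution than the transport genes. It was highest in immature enterocyte-like cells, with 101 ± 19.5 CPM (SD, n = 5 libraries) against 74.2 ± 24.2 in enterocyte-like cells, and the immature class was higher in 5 of 5 libraries. Cycling-like cells carried 67.4% and stem-like cells 49.7% of the enterocyte-like level, while the summed enterocyte markers there were 11.2% and 9.43%. Paneth-like cells carried 11.05%. The receptor was thus counted in crypt classes in which Slc10a2 and Fabp6 were low. These class levels are a description, since the classes come from the same cells.

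**Figure D1:**
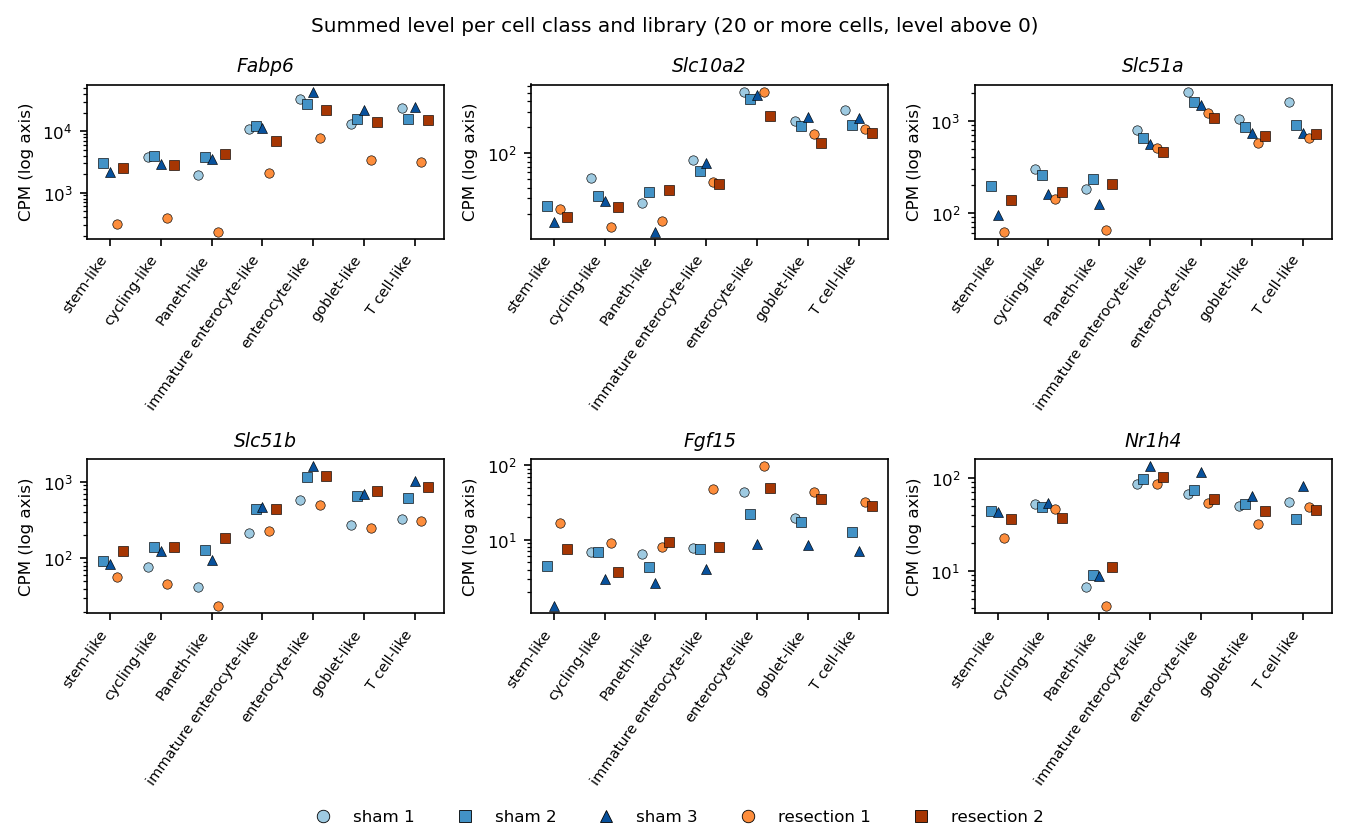
Summed level of 6 of the 7 genes in each cell class, in CPM on a log axis, 1 point per library with 20 or more cells (sham in blues, resection in orange and brown). Slc10a2, Slc51a, Slc51b and Fabp6 peak in enterocyte-like cells, while Nr1h4 is highest in immature enterocyte-like cells in 5 of 5 libraries.

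Fgf15 (ENSMUSG00000031073, chr7:144896531-144900953, plus strand) was sparse. It had 3583 UMIs in all kept cells. To compare detection at a single depth, each cell was thinned to 2000 UMIs. An Fgf15 UMI was then found in 5.75% of sham 1 enterocyte-like cells, 4.03% of those of sham 2, 1.42% of sham 3, 13.3% of resection 1 and 8.77% of resection 2. Both resection libraries were above every sham library. Without thinning the shares were 13.6%, 7.14%, 4.87%, 24.0% and 15.7% in the same order. Paneth-like cells, which are not a known source of Fgf15, gave the background: 1.80%, 1.61%, 0%, 1.69% and 1.09%. The 0 of 120 Paneth-like cells in sham 3 allows a share of up to 2.50%. Median depths before thinning were 8366 UMIs for those cells and 5879.5 for the enterocyte-like cells of sham 3. The exact 95% binomial interval of the sham 3 share, 0.90% to 2.12%, thus lay below that limit, and enterocyte-like detection in sham 3 could not be told from background. In sham 1 and sham 2 the share was above the Paneth-like one, but the intervals overlapped. Enterocyte-like detection there was thus not clear of background by this measure. In resection 1 (interval 12.0% to 14.8%) and resection 2 (7.96% to 9.63%) it was clear of the Paneth-like intervals, which ended at 4.85% and 3.15%. Intervals cover counting error only.

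The sham libraries had a mean share of 3.73% ± 2.18 (SD, n = 3) and the resection libraries one of 11.1% ± 3.23 (SD, n = 2), a difference of 7.32 percentage points. Over all 10 possible choices of 2 of the 5 libraries, an exact two-sided permutation test gave p = 0.1, the smallest value this design allows. Without thinning the difference was 11.3 points, with an exact permutation p of 0.2. The difference was 7.59 points within the set of sham 1 and resection 1 and 6.04 within the other. T cell-like droplets, which carried enterocyte transcripts as given above, held an Fgf15 UMI in 0% of 30, 104 and 39 cells of the sham libraries, which allows up to 10%, 2.88% and 7.69%. The shares were 6.25% in resection 1 (interval 0.766% to 20.8%) and 4.66% in resection 2 (2.35% to 8.19%). Both intervals overlapped those of the enterocyte-like cells of the same library, so detection there was not clear of this class. The summed enterocyte markers were at 70.7% of the enterocyte-like level in T cell-like cells, against 11.4% in Paneth-like cells. In goblet-like cells the Fgf15 level averaged 68.1% of the enterocyte-like CPM. Immature enterocyte-like cells stood at 0.95% to 1.69% in the sham libraries, 6.91% in resection 1 and 1.44% in resection 2. In that class only the interval of resection 1, 5.17% to 9.004%, lay above those of the sham libraries.

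**Figure D2:**
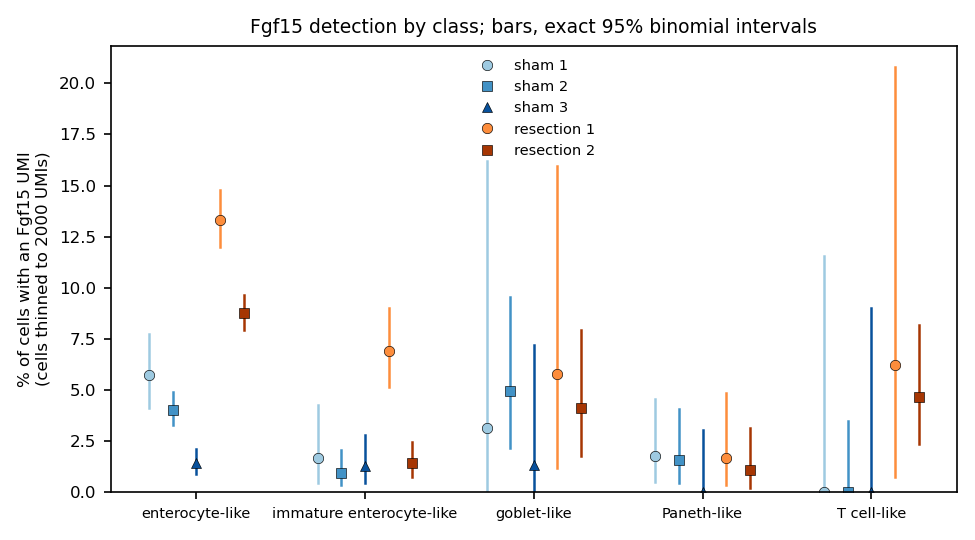
Percentage of cells with an Fgf15 UMI after thinning each cell to 2000 UMIs, by class and library, with exact 95% binomial intervals. The resection libraries reach 13.3% and 8.77% of enterocyte-like cells, and the sham libraries 1.42% to 5.75%; in Paneth-like cells no library exceeds 1.80%.

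The comparison of resection with sham was then made on UMI counts summed per library over the enterocyte-like cells. Levels of this comparison are TMM-scaled CPM, which correct for differences in composition between libraries. In edgeR's quasi-likelihood test, 0 of the 7 genes passed an adjusted p of 0.05, against 0% of all 10360 genes tested. At an unadjusted p under 0.05, 2 of the 7 passed (Fgf15 and Nr0b2), against 526 genes or 5.08% of all. DESeq2 also called 0 of the 7, and 73 of all genes. Both resection libraries were above every sham library for 2 of the 7 genes (Fgf15 and Nr0b2), against 10.5% of all genes, and below every sham library for 2 (Fabp6 and Slc51a), against 8.1%.

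Fgf15 was at 37.5 CPM in sham 1, 24.5 in sham 2 and 9.48 in sham 3, and at 89.6 in resection 1 and 52.6 in resection 2. The resection value was higher by 1.60 ± 0.52 (SE) on the log2 scale, and the adjusted p was 0.825 by edgeR and 0.242 by DESeq2. Without the low-count filter edgeR called it, at 0.00019. Within the sets it was 1.25 and 1.78. Nr0b2 (ENSMUSG00000037583, chr4:133553376-133556536, plus strand), the other target, was near the limit of detection. Its enterocyte-like cells held 2 UMIs in sham 1, 1 in sham 2, none in sham 3, 35 in resection 1 and 31 in resection 2. Pooled over libraries this was 0.111 CPM for sham and 1.85 for resection, a ratio of 16.7 with an exact 95% counting interval of 5.47 to 83.1. That interval covers counting error of the pooled UMIs only. It leaves out the spread between libraries and is no test of the surgery. With libraries as replicates, the adjusted p of Nr0b2 was 0.459 by edgeR and 0.057 by DESeq2. It too was called without the filter, at 0.00030.

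Fabp6 was at 29072, 30406 and 47714.5 CPM in sham 1, sham 2 and sham 3, and at 7074 and 23217 in resection 1 and resection 2. The log2 difference was −1.24 ± 0.59 (SE; edgeR adjusted p 0.998). It was −2.04 within the set of sham 1 and resection 1, and −0.71 within the other. Slc51a was at 1784, 1765 and 1600 CPM in the sham libraries and at 1107 and 1127 in the resection libraries. Its log2 difference was −0.62 ± 0.30 (SE; edgeR adjusted p 0.998), with −0.69 and −0.58 within the sets. The share of thinned cells with a Slc51a UMI was also lower in resection 1 (83.3%) and resection 2 (84.7%) than in the sham libraries (93.5% to 96.4%), with the smallest possible exact permutation p of 0.1.

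The other 3 genes overlapped between groups. Slc10a2 was at 447, 475 and 508 CPM in the sham libraries, 473 in resection 1 and 292 in resection 2. Only resection 2 lay below the sham range, and the within-set differences were 0.08 and −0.75 on the log2 scale. Its share of thinned cells with a UMI, however, was lower in both resection libraries: 58.2%, 54.4% and 55.8% in sham, 48.9% in resection 1 and 36.8% in resection 2 (exact permutation p = 0.1). Slc51b was at 500, 1294 and 1735 CPM in the sham libraries and at 460 and 1283 in the resection libraries. Its pooled log2 fold change of −0.43 ± 0.62 (SE) turned to 0.13 without resection 1, and within the sets the differences were −0.12 and −0.22. Nr1h4 was at 58.0, 81.8 and 124 CPM in the sham libraries and 49.6 and 63.6 in the resection libraries, a log2 difference of −0.64 ± 0.36 (SE), with −0.23 and −0.67 within the sets.

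**Figure D3:**
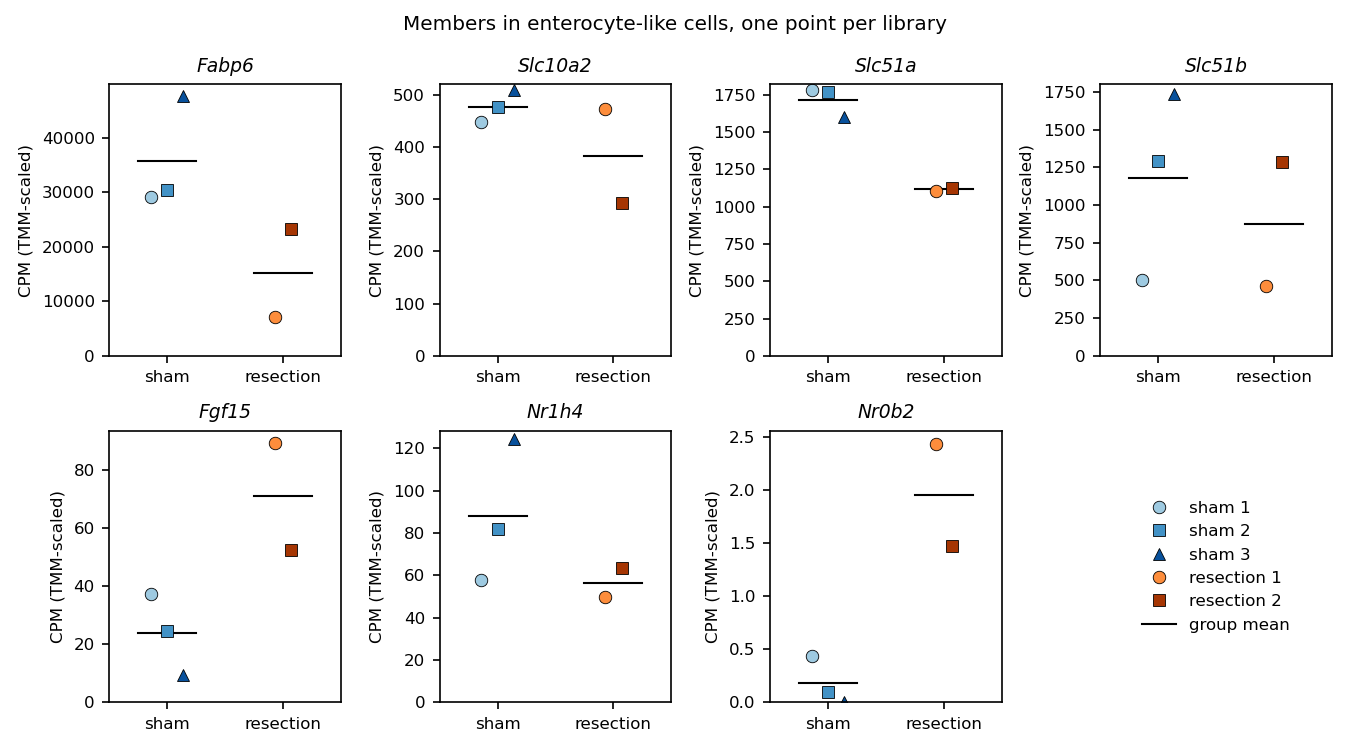
TMM-scaled CPM of the 7 genes in enterocyte-like cells, 1 point per library, with a line at the group mean. Every resection point is above every sham point for Fgf15 and Nr0b2 and below for Fabp6 and Slc51a, and Slc10a2, Slc51b and Nr1h4 overlap.

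Ratios between genes of the same library do not depend on scaling between libraries. The log2 ratio of Fgf15 to Fabp6 UMIs was −9.59 in sham 1, −10.27 in sham 2, −12.29 in sham 3, −6.30 in resection 1 and −8.79 in resection 2. Both resection libraries were above the sham libraries, by 3.18 on average, and the exact permutation p was again the smallest possible, 0.1. The difference was 1.93 without resection 1 and 4.42 without resection 2, with the same direction within both sets (3.29 and 2.50). The log2 ratio of Slc10a2 to Fabp6 was −6.02, −6.00 and −6.55 in the sham libraries and −3.90 and −6.31 in the resection libraries. Its mean difference of 1.08 rested on resection 1, without which it was −0.12, and the exact permutation p was 0.4. Within the sets it was 2.12 and −0.04.

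The same genes were compared in the other classes. In immature enterocyte-like cells, edgeR called 0 of the 6 that could be tested, against 0% of 9720 genes, and DESeq2 0. At an unadjusted p under 0.05, 2 passed (Slc10a2 and Fgf15), against 1.46% of all. Slc10a2 was at 72.0, 71.3 and 82.4 CPM in the sham libraries and at 41.3 and 48.2 in the resection libraries, −0.75 ± 0.24 (SE) on the log2 scale (edgeR adjusted p 0.9999). Unlike in enterocyte-like cells, both sets differed the same way here, by −0.80 and −0.67, though the difference between the classes was not tested. All sham libraries exceeded both resection libraries for 3 of the 6 (Fabp6, Slc10a2 and Slc51a), against 4.98% of all genes, and the reverse held for Fgf15, against 6.37%. Fgf15 was at 6.60, 8.58 and 4.40 CPM in sham and at 43.0 and 8.75 in resection libraries, so only resection 1 stood well clear.

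In goblet-like cells, 0 of 6 were called by edgeR, against 7 genes or 0.139% of all, and DESeq2 called 0 of the 6. Fgf15 there was at 18.3, 18.9 and 8.78 CPM in the sham libraries and 41.0 and 37.9 in the resection libraries, above in both as for 10.5% of all genes. It alone had an unadjusted p under 0.05, against 4.15% of genes. Slc10a2 and Slc51a lay below in both, against 7.91%.

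In Paneth-like cells 0 of 6 were called by edgeR and by DESeq2, against 0.0312% of genes in edgeR, and 0 had an unadjusted p under 0.05, against 1.93%. All 6 overlapped between the groups there, where 7.05% of genes lay above and 6.24% below in both resection libraries. In cycling-like cells 0 of 6 were called by either tool, against 0% in edgeR. Slc10a2 was the 1 with an unadjusted p under 0.05 (0.042), against 1.42% of genes. Slc10a2 and Nr1h4 lay below in both resection libraries, against 4.85%, and 0 lay above, against 6.31%. Over all epithelial cells 0 of 7 were called by either tool, against 0% of 11724 genes in edgeR. Fgf15 and Nr0b2 had an unadjusted p under 0.05, against 2.76%, and lay above in both resection libraries, against 7.94%. Fabp6, Slc10a2 and Slc51a lay below in both, against 6.21%. Stem-like cells were left out of the test, which asked for 20 cells in every library, since sham 1 had 0.

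Single cells gave the spread behind these sums. In the median enterocyte-like cell, Fabp6 made up 3.22% of UMIs in sham 1, 2.43% in sham 2, 4.43% in sham 3, 0.380% in resection 1 and 1.81% in resection 2. Cells with more than 1% of their UMIs in Fabp6 were 93.1%, 84.2% and 97.2% of the sham libraries, 28.6% of resection 1 and 72.6% of resection 2. Cells with no Fabp6 UMI occurred only in resection 1, where they were 133 of 2370. Resection 1 thus differed from the other libraries over most of its cells and not through a few.

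**Figure D4:**
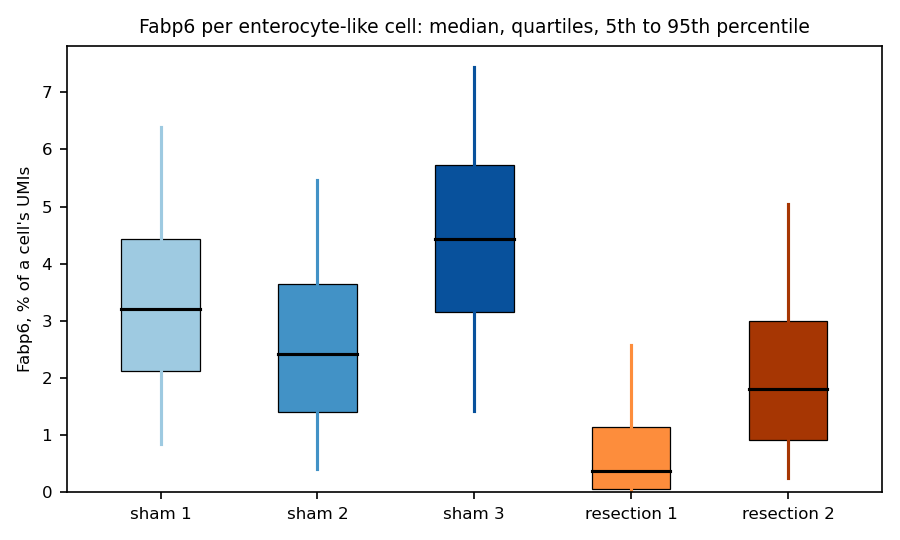
Fabp6 as a percentage of the UMIs of each enterocyte-like cell, by library: the black line is the median, the box the quartiles and the vertical line the 5th to 95th percentiles. Medians are 2.43% to 4.43% in sham libraries, 1.81% in resection 2 and 0.380% in resection 1.

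A threshold of 0.1% of UMIs in Fabp6, chosen after the values were seen, separated out 767 cells of resection 1, or 32.4% of its enterocyte-like cells, against 1, 1 and 0 cells in the sham libraries and 19 in resection 2. These cells had a median of 5028 UMIs, against 5097 in the other enterocyte-like cells of that library. They carried 123 CPM of Slc10a2 against 689 in the others, and 670 of Slc51a against 1441.5. Fgf15 was not lower in them, at 117 CPM against 88.4. Fabp1 and Apoa4, lipid-handling genes typical of more proximal bowel, stood at 11161 and 17215 CPM in them, against 3289 and 4445. Over all enterocyte-like cells, on the TMM scale, Fabp1 was at 181 to 667 CPM in sham and 2878 to 5287 in resection libraries, and Apoa4 at 222 to 778 and 4061 to 7756.

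Within each library, the transport genes varied together from cell to cell. Over enterocyte-like cells, the Pearson correlation of Fabp6 with Slc51a, on log-scaled counts, was 0.24 in sham 1, 0.25 in sham 2, 0.19 in sham 3, 0.55 in resection 1 and 0.33 in resection 2. For Fabp6 with Slc10a2 it was 0.12, 0.09, 0.10, 0.59 and 0.25. Both resection libraries had higher values of these pairs than the sham libraries. Fabp6 with Slc51b ran from 0.08 to 0.27, and Slc10a2 with Slc51a from 0.17 to 0.49. Fgf15 did not join them. Its correlation with Fabp6 was −0.11 to 0.06, and with Slc10a2 −0.23 to 0.00. These correlations are over cells of the same library, which share depth and composition, and are descriptions only.

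Cells ranked on Fabp6 and divided into 5 equal bins gave the corresponding summed levels. Slc51a and Slc51b were highest in the top Fabp6 bin in 5 of 5 libraries, and Fabp1 and Apoa4 in the bottom one. In resection 1, Slc10a2 went from 103 CPM in the lowest Fabp6 bin to 896 in the highest, and Nr1h4 from 24.8 to 73.3. In resection 2, Slc10a2 went from 143 to 370. In sham 3 it went from 405 to 478. Fgf15 had no common order: its highest bin was 5 in sham 1 and sham 3, 1 in sham 2, 2 in resection 1 and 3 in resection 2.

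Fgf15 and Slc10a2 were then compared cell by cell after thinning. Slc10a2 was detected in 31.6% of the 316 Fgf15-positive cells of resection 1 and in 51.5% of its other cells. The corresponding shares were 32.7% and 37.2% in resection 2, 34.8% (of 23 cells) and 56.1% in sham 3, 50% and 54.6% in sham 2, and 57.5% and 58.2% in sham 1. The share was lower in Fgf15-positive cells in each library, by least in sham 1. Sham 1 and sham 2 had only 40 and 96 such cells, and the differences were not tested.

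Among the 3624 genes that passed a minimum of 20 CPM, those most like Fabp6 by the mean within-library correlation were Phgr1 (0.32), Slc51a (0.32), Krt19 (0.30), Gpx2 (0.28) and Reg3b (0.28). Reg3b, an antimicrobial lectin, is also a marker of the villus bottom, used below. For Slc10a2 they were Slc51a (0.26), Tmigd1 (0.26), Enpep (0.25), Sis (0.24) and Slc13a1 (0.24). Each of these 5 correlations was highest in resection 1, and that of Slc13a1 ranged from 0.10 to 0.67 and averaged 0.14 without that library. Enpep and Sis encode brush border hydrolases. Fgf15 had only weak neighbours, led by Anxa4 (0.11), Gimd1 (0.10), Dnase1 (0.10), Adh6a (0.08) and Chka (0.07). Gimd1 averaged 0.06 without resection 1, its highest library. Slc10a2 ranked 3618 of 3625 for Fgf15, at a mean of only −0.06. The correlation was −0.23 in resection 1 and −0.05 to 0.00 in the other libraries. From 76.0% to 95.1% of the enterocyte-like cells of a library had no Fgf15 UMI.

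Absorptive cells were also ranked within each library along the villus, by 8 genes known to mark the top minus 6 that mark the bottom, and divided into 5 equal bins. Slc10a2 was higher in the top than in the bottom bin in 5 of 5 libraries. From the bottom to the top bin it went from 319 to 489 CPM in sham 1, 178 to 449 in sham 2, 176 to 560 in sham 3 and 125 to 700 in resection 1. In resection 2 it was 146 at the bottom, reached 304 in the middle bin and was 187 at the top. Immature enterocyte-like cells made up 36.9% to 46.0% of the bottom bin and 5.05% to 15.1% of the top bin in the sham libraries, 62.8% and 0.971% in resection 1, and 43.3% and 0.834% in resection 2. The part of that shift in the gradient was not tested. Slc51b also had a higher top than bottom bin in 5 of 5 libraries. Fabp6 had its highest level in bin 2, 3 or 4 in every library.

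Nr1h4 was highest in the bottom bin in 5 of 5 libraries, with 87.3, 95.2, 134, 77.9 and 96.9 CPM in sham 1, sham 2, sham 3, resection 1 and resection 2, and 48.0, 58.6, 95.1, 68.8 and 30.4 in the top bin. With the top list alone the bottom bin was again above the top bin in 5 of 5 libraries, though it was the highest of the 5 bins in only 2. Fgf15 had different profiles in the resection libraries. In resection 1 it was at 94.5, 126, 99.8, 57.3 and 18.2 CPM from bin 1 to bin 5, and in resection 2 at 28.3, 33.6, 51.6, 60.1 and 36.7. The top bin was the lowest in resection 1, and the bottom bin was the lowest in resection 2. In sham 2, Fgf15 went from 10.98 to 34.6, and in sham 3 no bin exceeded 11.3. Sham 1 had 31.0, 34.4, 32.4, 43.3 and 25.5, with its lowest value in the top bin, as in resection 1.

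**Figure D5:**
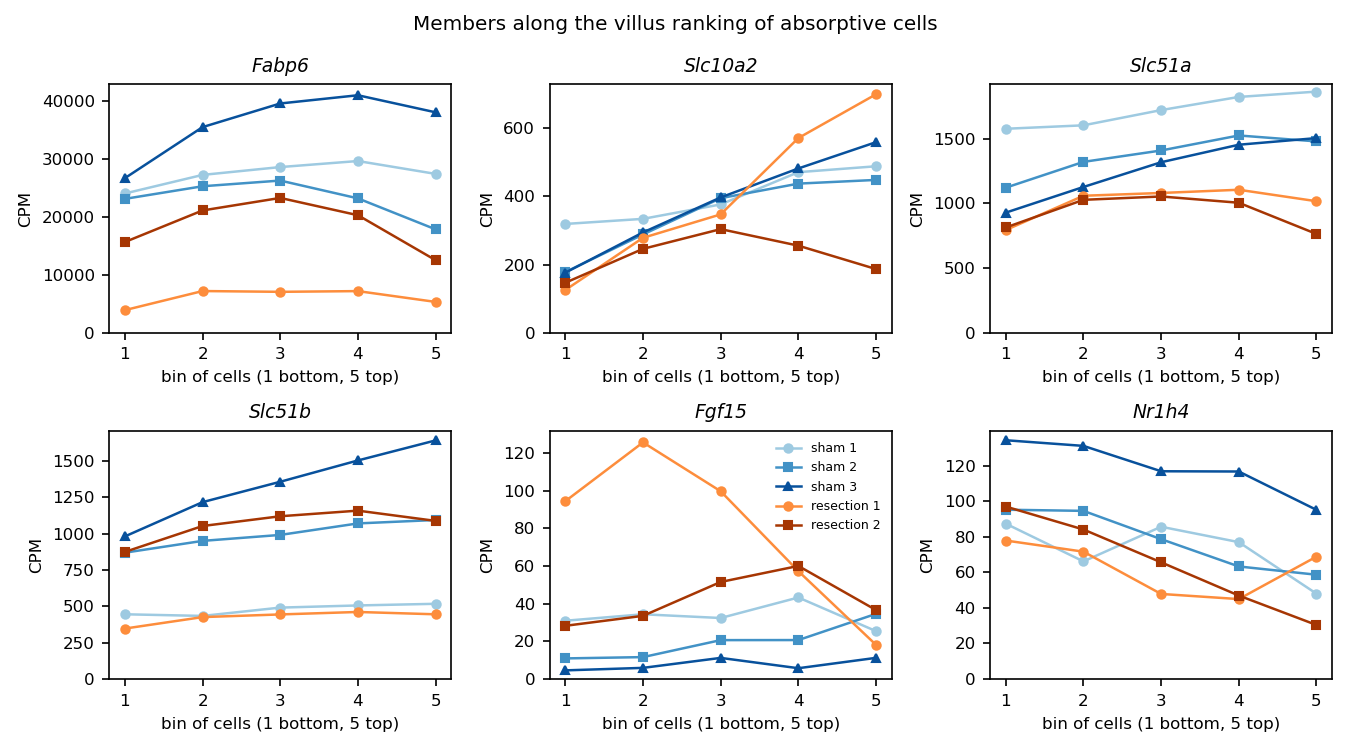
Level of 6 genes, in CPM, in 5 equal bins of absorptive cells ranked from villus bottom (1) to top (5), 1 line per library. Slc10a2 climbs in 4 libraries but peaks in the middle bin of resection 2, Fgf15 is highest in bin 2 of resection 1 (126) and bin 4 of resection 2 (60.1), and Nr1h4 is highest in bin 1 of all 5 libraries.

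Because enterocyte-like cells of the libraries fell into different clusters, the cells were also clustered with genes scaled within each library. The libraries then shared 53.1% to 87.5% of their enterocyte-like cluster make-up, against 3.91% to 37.4% before. In 6 of the resulting states (0, 2, 3, 4, 5 and 11) every library had 20 or more cells. Single genes lay above in both resection libraries in 10.2%, 8.1%, 8.63%, 9.3%, 6.23% and 7.31% of cases in these states, and below in 8.13%, 5.79%, 5.61%, 7.69%, 6.08% and 8.18%. Fabp6 lay below in 5 of the 6 states, where 0.865% of 6819 genes did so in 5 or more. Slc51a lay below in 5 as well, and Slc10a2 in 4, where 1.77% of genes did so in 4 or more. Fgf15 lay above in 4 states, where 2.57% of genes did so in 4 or more. Nr1h4 lay below in 3 states and overlapped in 3, Nr0b2 lay above in 3 and overlapped in 3, and Slc51b overlapped in 6 of 6. The share of all genes for 3 or more states was not taken, so nothing is read from the counts of 3. Nr0b2 was also near the floor, at state means of 0.129 to 1.96 CPM, while the 6819 genes had a mean of at least 5. In state 5 it had 2 and 3 UMIs in the resection libraries.

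Among these states, the one led by the lipid genes Lct, Apoa4 and Fabp1 had Slc10a2 at 472 to 618 CPM in sham libraries, against 137 and 216 after resection. The one led by Gsta1 and Ms4a18 had Fgf15 at 2.29 to 10.6 CPM in sham libraries, against 28.7 and 130 after resection. Both gaps are among the widest of these states. Slc10a2 overlapped between the groups in states 5 and 11, and Fgf15 in states 4 and 11. The states share libraries and are not independent of one another.

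The rest of the bile acid pathway was followed in a list of 26 genes: partners and regulators of the receptor, other bile acid sensors, other transporters, metabolic enzymes and the Fgf15 receptor. In enterocyte-like cells 21 could be tested. By edgeR 0 were called, with 11 fold changes above and 10 below 0, a median of 0.0051 on the log2 scale against −0.02 over all genes, and 4 at an unadjusted p under 0.05, against 5.08% of all genes. DESeq2 called 1, Cyp3a11. Cyp3a11, a drug and bile acid hydroxylase, was at 4.63, 3.25 and 1.08 CPM in the sham libraries and at 37.6 and 66.4 after resection. The log2 difference was 4.22 ± 0.53 (SE), and the adjusted p was 0.270 by edgeR and 8.3e-11 by DESeq2. Within the sets it was 2.99 and 5.11. edgeR called it with the library set as a term (0.026) and without the low-count filter (9.8e-24). In goblet-like cells edgeR called Cyp3a11, at 4.08 ± 0.69 (SE) and an adjusted p of 0.035. It lost that call without sham 3 (0.247) and without resection 2 (0.915), and with genes scaled within each library before clustering (0.070).

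The next genes of the list by p were Fgfr4, Cyp27a1, Nr1i3, Rxrb and Cyp3a13. Fgfr4, the Fgf15 receptor, was at 0.88, 0.49 and 1.35 CPM in the sham libraries and at 0.21 and 0 in the resection libraries, below in both, where 8.1% of all genes were. These Fgfr4 levels lie near the limit of detection in every library. Cyp27a1, a sterol hydroxylase, was at 8.60, 13.4 and 10.8 CPM in sham 1 to 3, 26.3 in resection 1 and 14.9 in resection 2. Nr1i3, the constitutive androstane receptor, was at 20.5, 20.1 and 11.01 CPM, then 54.0 and 21.7. Rxrb, a partner of the farnesoid X receptor, ranged from 6.95 to 10.1 CPM after sham surgery and stood at 14.4 and 10.7 after resection. Cyp3a13 ranged from 276 to 337 CPM and stood at 525 and 349. The last 4 of these were higher in both resection libraries, with resection 1 above resection 2 in each. They were taken by their low p, and 10.5% of all genes lay above in both.

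Other lists were also summed in enterocyte-like cells. The enterocyte, immature enterocyte and cycling lists separated the groups, and the stress, Paneth and T cell lists did not. The 11 enterocyte markers summed to 20239 to 28317 CPM in the sham libraries and to 42726 and 38902 in resection 1 and resection 2, with 0 markers at 0. The 6 immature enterocyte markers summed to 2489 to 3110 CPM, against 870 and 1534, and the 10 cycling markers to 86.4 to 110, against 76.2 and 81.8. The 10 handling and stress genes summed to 2144 to 2587, against 4259 and 2121. The 8 Paneth markers summed to 1348 to 6077, against 2501 and 2350, and the 9 T cell markers to 55.7 to 125, against 30.5 and 100.1. B cell, myeloid and stromal lists did not exceed 4.64 CPM in any library. The median mitochondrial share was 7.77% to 14.4% in the sham libraries, 12.3% in resection 1 and 9.57% in resection 2. The part of these in the differences above was not tested.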

How the data were processed

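The deposited files hold UMI counts per gene and cell, with barcode and gene lists. Per the labels, libraries were made on the 10x Chromium system with v2 chemistry of the 3' kit and counted with Cellranger, whose version the labels give as 2 with a question mark; mm10 (GRCm38) is named per the submitters' processing notes. The counts were deposited unnormalized.

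Cells with under 500 genes or over 20% mitochondrial counts were removed, as were 720 simulated-neighbour doublets (3.80%). Cells were clustered on 2000 variable genes and 30 principal components with the Leiden method (leidenalg 0.10.2, resolution 1), which gave 21 clusters. Clusters were named from marker lists, so names are rebuilt and may differ from the study's. Counts were summed per library and class (at least 20 cells). Resection was compared with sham using edgeR 4.0.16 (quasi-likelihood, TMM scaling, filterByExpr, Benjamini-Hochberg adjustment over all genes) and DESeq2 1.42.0. The SE printed with an edgeR log2 difference is an approximation. It is the absolute difference divided by the square root of the quasi-likelihood F statistic. Ratios used a pseudocount of 0.5 UMI and, like shares, an exact permutation test. The count tests were checked on simulated data.

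The genes and lists were chosen with earlier results of these data known. Named genes were the 7, the 6 pathway genes with the lowest p in enterocyte-like cells, and the 5 most like each of Fabp6, Slc10a2 and Fgf15 (the list for Slc51b is not reported here); Fabp1 and Apoa4 were named for comparison. Gene positions are from GENCODE M21. The library sets, the states of enterocyte-like cells, the low-Fabp6 threshold and the permutation tests of other shares were added after seeing the data. Other alternatives are given in the closing section.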

Additional observations from a re-analysis of the deposited data

How the results depend on the processing

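No member was called by edgeR in any class under the main settings. Without the low-count filter 2 members were called in enterocyte-like cells (Fgf15, adjusted p 0.00019, and Nr0b2, 0.00030). A replicate block (the number in the titles, with 2 pairs and sham 3 unpaired) called 1 in enterocyte-like cells (Fgf15, 0.017), 1 in immature enterocyte-like cells (Fabp6), 4 in other classes (Fabp6 in cycling-like and goblet-like, Slc51a in cycling-like and Paneth-like cells) and 1 over all epithelial cells (Fgf15). Deviations of same-numbered libraries correlated at 0.55 and 0.20, and those of sham 3 and resection 2, which differ in number, at 0.49. With 2 resection libraries their deviations mirror each other, so each sham library correlates positively with 1 of them by construction. These values and 2 pairs do not establish a pairing. Under the block all genes called in enterocyte-like cells went from 0 to 133 of 10360. All genes called were 48 of 9720 in immature enterocyte-like, 41 of 9556 in cycling-like and 111 of 5042 in goblet-like cells. They were 49 of 6414 in Paneth-like cells and 201 of 11724 over all epithelial cells. The ratio differences under the block were 2.39 for Fgf15 to Fabp6 and 0.90 for Slc10a2 to Fabp6. Leaving out a sham library gave 0 members in enterocyte-like cells and 0 in other classes. Leaving out a resection library leaves 1 in that group, so member calls of those fits are not given. All genes called in enterocyte-like cells were 0 by edgeR, 73 by DESeq2, 222 without the filter and 20 with the library set as a term.

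Of the pathway list in enterocyte-like cells, 1 was called by DESeq2, 2 without the filter (Cyp3a11 and Nr1i3), 1 with the library set as a term and 1 under the block, in each case including Cyp3a11. The difference in the Slc10a2 to Fabp6 ratio was −0.12 to 2.29 when a library was left out, reversed without resection 1. Fgf15 kept a positive log2 fold change in enterocyte-like cells under 16 alternatives (1.17 to 2.07), and Fabp6 (−2.34 to −0.62) and Slc51a (−0.67 to −0.59) kept a negative one. Resolution 0.5 left only 45 enterocyte-like cells in sham 1. The shares of such cells with an Fgf15 UMI were then 2.22%, 4.28% and 2.26% in the sham libraries and 13.5% and 8.77% in the resection libraries. Slc51b was −1.36 to 0.127 with a library left out, reversed without resection 1. In immature enterocyte-like cells it was −0.988 to 0.280 with a library left out, reversed without resection 1, and reversed with the library set as a term (0.0149) and under the block (0.0301). Nr1h4 there was −0.532 to 0.0312, reversed without sham 3 and without resection 1, and reversed under the block (0.0259). With the top list alone, the top to bottom log2 ratio of Fgf15 along the villus reversed (0.0355). Causes were not tested. With 3 against 2 libraries no permutation p can fall below 0.1, and Nr0b2 rests on 69 UMIs.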
